A study of Mus musculus with 30 samples.

Results

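Lysosomes are the acidic organelles in which cells break down what they take up and what they discard. A set of 38 genes that encode their hydrolases, their membrane proteins and their proton pump was taken from a list of symbols, each matched to a gene identifier in the files, out of 36528 genes counted. The set holds 19 hydrolases that cut glycans, lipids and proteins, 3 lumenal proteins that are not hydrolases (Npc2, Psap and Grn), 7 membrane proteins, 8 genes of the proton pump and the regulator Tfeb. No expression value entered the rule, though earlier results of these data were known when the genes were chosen.

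Cells had been sorted from the brains of PS2APP mice and of their non-transgenic littermates (non-Tg), both 11.5 months old, by Cd11b for myeloid cells, by Gfap for astrocytes and by NeuN for neurons. PS2APP mice carry mutant human presenilin 2 and mutant human amyloid precursor protein, driven by a prion protein promoter and a Thy1 promoter, and deposit amyloid plaques with age. Each of the 6 groups had 5 libraries, and non-Tg mice carry neither transgene. Replicate numbers only name a library here. The labels do not tie libraries to animals, and the p-values rest only on how these libraries spread.

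Hydrolases are made in the endoplasmic reticulum, reach the lysosome mostly on mannose 6-phosphate receptors and work at low pH. That pH is set by the V-ATPase, a rotary pump whose cytosolic V1 sector burns ATP and whose membrane V0 sector carries protons. Microglia, the resident phagocytes of the brain, are rich in lysosomes, and inherited loss of many of these proteins causes storage disease with neurodegeneration. Tfeb, a transcription factor of the MiT/TFE family, switches on lysosomal genes through short promoter elements built on the letters CACGTG.

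Library totals ran from 2015535 to 6749681 counts, and PS2APP myeloid libraries were the shallowest, at 2473581 ± 413655 (SD, n = 5) against 4704683 ± 1051807 in non-Tg. The mitochondrial share of counts was 13.5% ± 2.97 in PS2APP against 8.75% ± 2.89 in non-Tg myeloid libraries, 6.91% ± 1.14 against 3.58% ± 0.866 in astrocytes and 1.51% ± 0.268 against 1.205% ± 0.336 in neurons. Summed levels of 10 microglial markers were 8302 to 9747 CPM (counts scaled to a common library total) in non-Tg myeloid libraries, 32.4 to 53.5 in astrocytes and 32.6 to 57.3 in neurons, and 13 neuronal markers summed to 344 to 585, 833 to 1206 and 2864 to 3561. One PS2APP library per population stood apart on the first principal component: replicate 4 in myeloid cells, 3 in astrocytes and 5 in neurons. The same 3 libraries held Arhgap6 at about its non-Tg level, at 10.8, 3.65 and 60.4 CPM, whereas the other PS2APP libraries ranged from 72.9 CPM upward. Thy1 was above every non-Tg library of its population in all 15 PS2APP libraries. Genotype counts and calls, and some further differences, are given with and without them.

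As a set, the genes were most abundant in myeloid cells. In non-Tg libraries the 38 genes took 0.526% ± 0.0569 of all counts in myeloid cells, 0.1615% ± 0.0244 in astrocytes and 0.194% ± 0.0170 in neurons (SD, n = 5 each). These shares carry no TMM factors. With such factors, used for the sums by role that follow, the members together stood higher in astrocytes than in neurons. The 19 hydrolases summed to 2697 ± 197 CPM in myeloid cells, 617 ± 26.05 in astrocytes and 493 ± 40.7 in neurons, on a scale of TMM factors over all libraries. The 3 lumenal proteins stood at 992 ± 112, 252 ± 14.7 and 93.3 ± 7.67 CPM. The membrane proteins summed to 748 ± 73.0, 537 ± 78.7 and 254 ± 17.7. The pump departed from that order, with 676 ± 50.1 CPM in myeloid cells and 688.5 ± 59.3 in neurons but 323 ± 21.45 in astrocytes. The largest part of each of these sums was a single gene, Atp6v0a1, with 387 ± 44.9, 443 ± 81.3 and 133 ± 18.3 CPM. Other pump genes differed in their order, as given below. In bulk RNA of this kind, fewer cells of a type and less RNA per cell cannot be told apart.

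**Figure D1:**
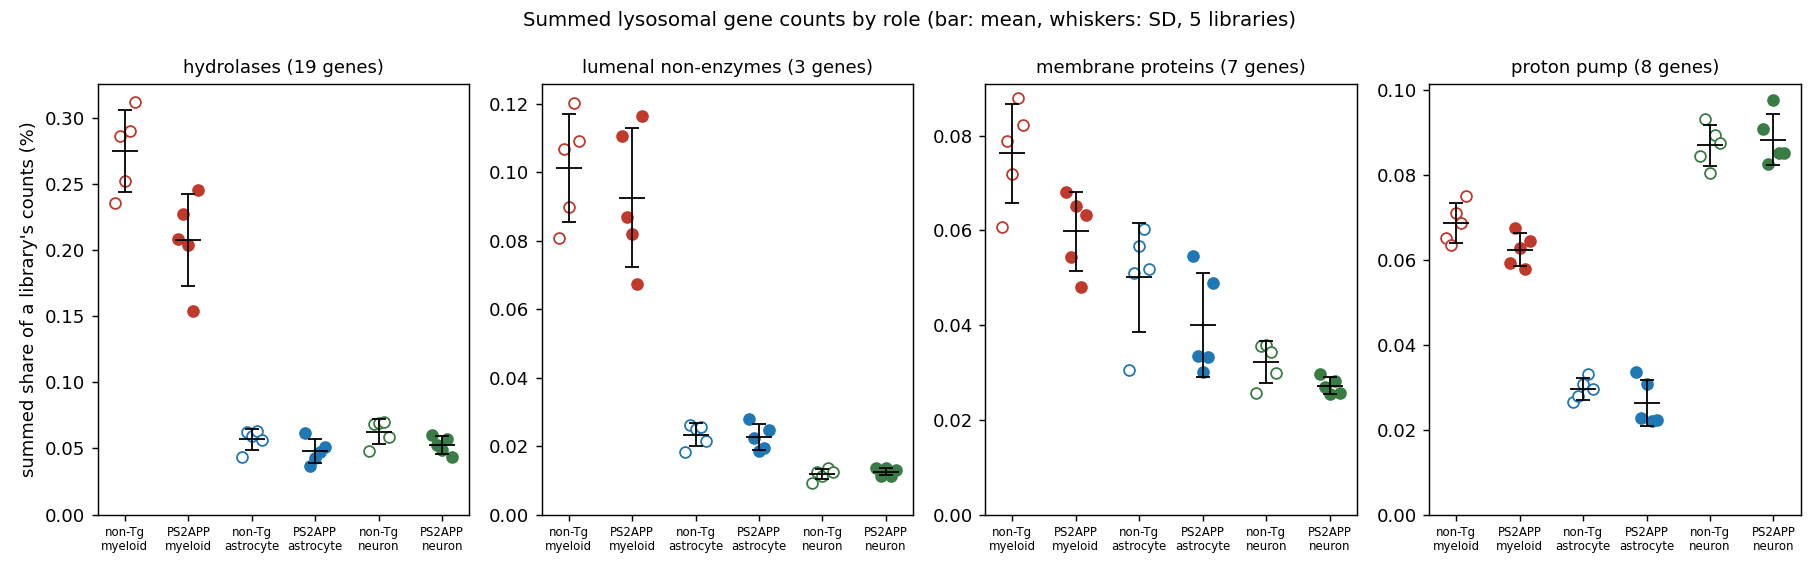
Summed share of a library's counts (%, y axis) for each role of lysosomal gene in the 6 groups (x axis), with non-Tg and PS2APP libraries as points, and means and SD over 5 libraries. Hydrolase shares of the 10 myeloid libraries lie above those of all other libraries, whereas pump shares are highest in neurons. Shares carry no TMM factors, with which the pump sums of non-Tg myeloid cells and neurons were close. Atp6v0a1 alone makes the largest part of the pump sum in each non-Tg population.

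Gene by gene, 25 of the 37 members that passed the filter on low counts were higher in non-Tg myeloid cells than in non-Tg astrocytes and 3 were lower (edgeR quasi-likelihood test, adjusted p under 0.05). Over all 18101 genes tested, 26.8% were called higher and 30.7% lower. Against neurons 28 members were higher in myeloid cells and 3 lower, where 34.1% and 33.7% of all genes were called. Between astrocytes and neurons 15 were higher in astrocytes and 7 in neurons, against 26.9% and 24.8% of all genes. The members' median log2 difference was 0.95, 1.38 and 0.33, and that of all genes -0.11, 0.03 and 0.02. With relative log expression (RLE) size factors in place of TMM, the median of all genes was -0.28, -0.20 and -0.05, and the members' counts were 25 and 3, 25 and 5, and 14 and 8. The 3 comparisons share their libraries.

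Groups did not overlap for 20 members higher and 0 lower in myeloid cells than in astrocytes, where 20.4% and 22% of all genes did not. The counts were 27 and 2 against neurons (27.8% and 30.4% of all genes), and 13 and 7 between astrocytes and neurons (23.6% and 23.7%).

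**Figure D2:**
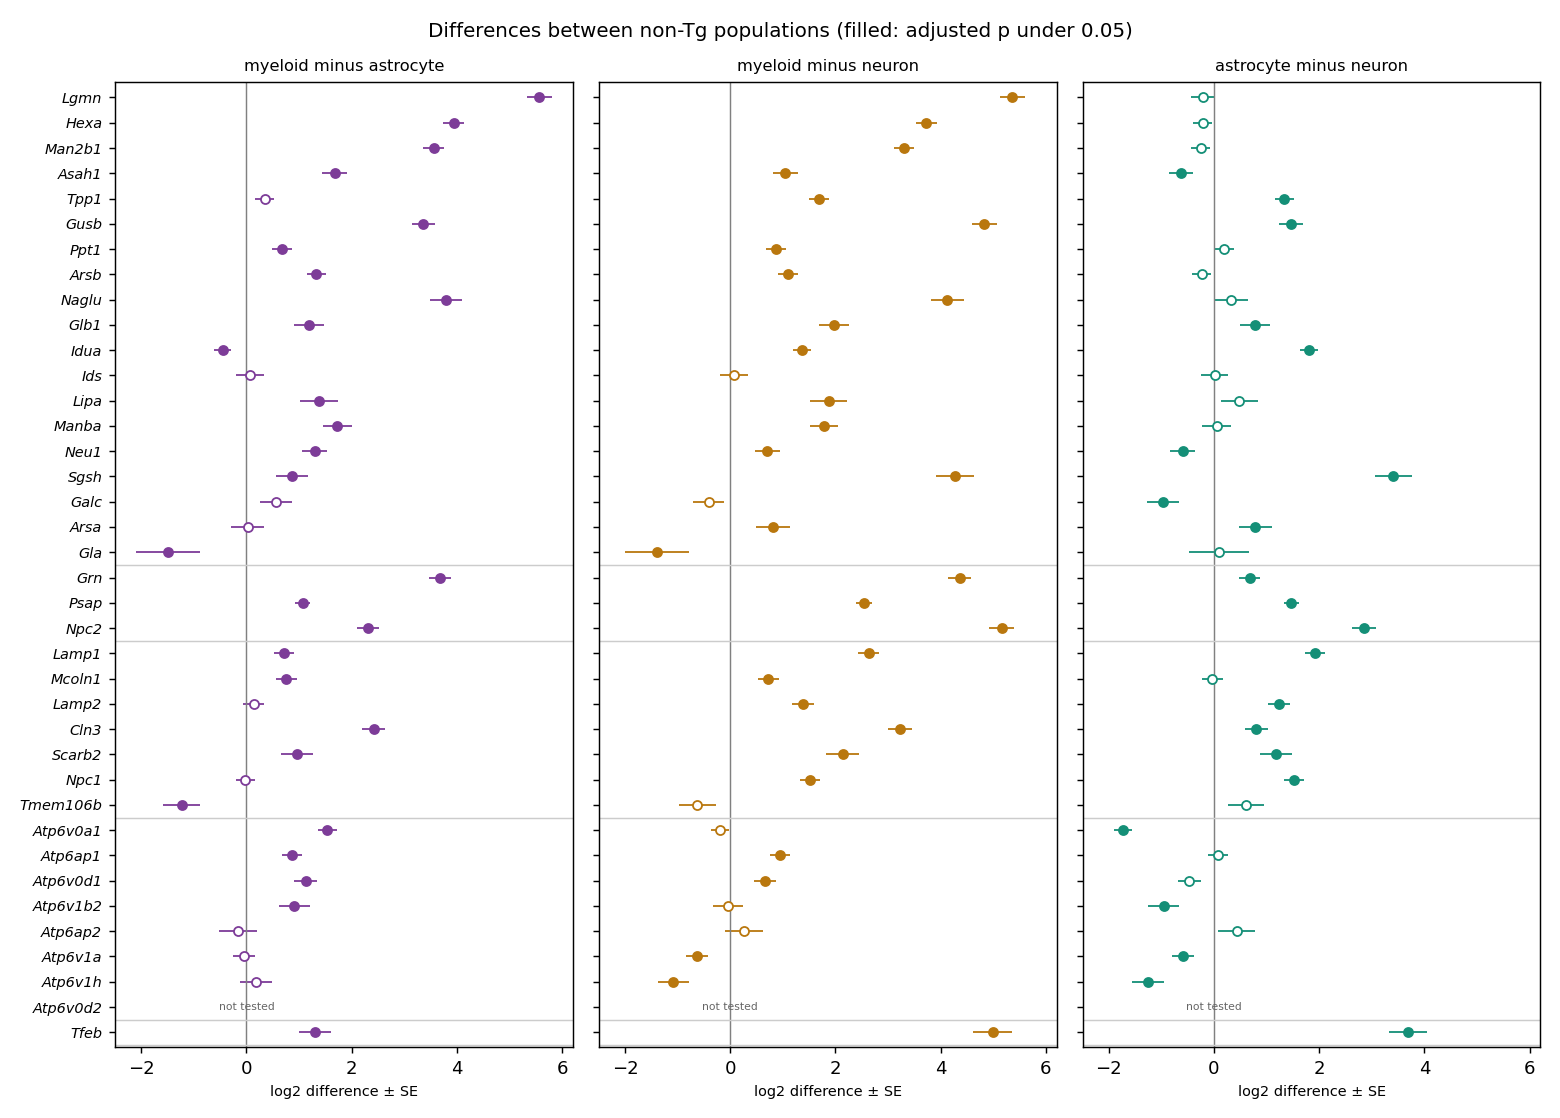
Differences between non-Tg populations (log2 ± SE, x axis) for the 38 genes (y axis, by role), with filled points where the adjusted p was under 0.05. Lgmn lies farthest to the right against astrocytes and neurons alike, at 5.57 and 5.36, and 4 pump subunits with an adjusted p under 0.05 lie left of 0 between astrocytes and neurons.

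Among the hydrolases the widest difference was that of Lgmn, the asparaginyl endopeptidase legumain, which processes other lysosomal proteases (chr12:102394082-102439728, GRCm38). Its non-Tg libraries held 699.7, 876.5, 918, 903 and 1067 CPM in myeloid cells, 9.04, 15.0, 25.3, 24.8 and 19.8 in astrocytes and 18.6, 24.5, 21.0, 24.7 and 19.9 in neurons. Every myeloid library lay far above all others, and astrocytes and neurons overlapped. The log2 difference was 5.57 ± 0.24 (SE) against astrocytes, or 47.6-fold, and 5.36 ± 0.24 against neurons, with adjusted p of 1.69e-20 and 1.89e-20. Lgmn was also the most abundant member per length in myeloid cells, at 123.5 ± 17.7 RPKM (SD, n = 5).

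Other hydrolases of glycans were also highest in myeloid cells. Hexa, needed to degrade GM2 ganglioside, had 296 ± 46.5 CPM in myeloid cells, 19.2 ± 3.98 in astrocytes and 22.3 ± 3.38 in neurons, with log2 differences of 3.94 ± 0.20 and 3.73 ± 0.19. Man2b1, lysosomal alpha-mannosidase, had 530.4 ± 34.6 CPM in myeloid cells, 44.65 ± 12.6 in astrocytes and 53.3 ± 12.05 in neurons, and Naglu, which acts on heparan sulfate, 52.0 ± 8.92 CPM in myeloid cells, 3.745 ± 0.792 in astrocytes and 2.91 ± 0.787 in neurons. Man2b1 differed by 3.56 ± 0.19 and 3.31 ± 0.19, and Naglu by 3.80 ± 0.31 and 4.13 ± 0.31. Gusb, beta-glucuronidase, had 109.9 ± 20.6 CPM in myeloid cells, 10.7 ± 2.15 in astrocytes and 3.82 ± 0.8735 in neurons. It was higher in astrocytes than in neurons too (log2 1.47 ± 0.23).

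Smaller differences in favour of myeloid cells, called against both other populations, were found for Manba, Asah1, Lipa, Arsb, Neu1, Glb1 and Ppt1, from 0.68 (Ppt1) to 1.73 (Manba) against astrocytes. Manba cuts mannose, Glb1 galactose and Neu1 sialic acid from glycans, Asah1 is acid ceramidase, Lipa the acid lipase, Arsb a sulfatase, and Ppt1 removes palmitate from proteins. Mean levels (± SD, n = 5) in myeloid cells, astrocytes and neurons were 35.7 ± 7.63, 10.8 ± 1.82 and 10.4 ± 1.76 CPM for Manba, 114 ± 38.3, 35.75 ± 9.17 and 55.0 ± 11.8 CPM for Asah1 and 30.4 ± 11.2, 11.7 ± 4.99 and 8.34 ± 2.96 CPM for Lipa. They were 106 ± 7.81, 42.0 ± 10.6 and 49.4 ± 3.46 CPM for Arsb, 34.6 ± 8.76, 14.1 ± 4.11 and 21.1 ± 1.07 CPM for Neu1, 34.7 ± 7.02, 15.2 ± 5.35 and 8.815 ± 1.07 CPM for Glb1 and 101.3 ± 14.45, 63.3 ± 13.6 and 55.4 ± 9.94 CPM for Ppt1. All 7 thus had their highest mean in myeloid cells. Neu1 lost its call against neurons with RLE factors (adjusted p 0.0692). Neu1 and Asah1 were also lower in astrocytes than in neurons (log2 -0.59 ± 0.24 and -0.62 ± 0.23), and Glb1 was higher (log2 0.78 ± 0.28). The call of Neu1 was lost in 7 of 10 fits that left out 1 library (log2 -0.76 to -0.46, adjusted p 0.012 to 0.12): without astrocyte replicates 2, 4 or 5 or neuron replicates 2, 3, 4 or 5. That of Asah1 was lost without astrocyte replicate 1 (-0.52, adjusted p 0.069), neuron replicate 3 (-0.51, adjusted p 0.08) or neuron replicate 4 (-0.58, adjusted p 0.053). That of Glb1 was lost without astrocyte replicate 1 (0.59, adjusted p 0.1), astrocyte replicate 2 (0.64, adjusted p 0.079) or neuron replicate 3 (0.71, adjusted p 0.053).

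Several hydrolases had another order. Sgsh, the heparan sulfamidase (chr11:119343489-119355510, GRCm38), had non-Tg values of 21.6, 42.5, 26.9, 23.5 and 42.9 CPM in myeloid cells, 27.9, 18.0, 9.45, 14.65 and 16.2 in astrocytes and 1.39, 1.35, 1.125, 1.66 and 2.44 in neurons. Myeloid and astrocyte libraries overlapped, and all lay above the neurons. It differed from neurons by 4.27 ± 0.36 in myeloid cells and 3.41 ± 0.35 in astrocytes, and between these 2 by 0.86 ± 0.30 (adjusted p 0.0138). That last call was lost without myeloid replicate 5 (0.73, adjusted p 0.051), astrocyte replicate 3 (0.64, adjusted p 0.082) or astrocyte replicate 4 (0.74, adjusted p 0.054). Idua, the iduronidase of heparan and dermatan sulfate breakdown, had its highest mean in astrocytes, with 64.45 ± 11.8 CPM in myeloid cells, 88.3 ± 8.98 in astrocytes and 25.2 ± 1.66 in neurons. The myeloid minus astrocyte difference was -0.45 ± 0.16 (adjusted p 0.0173), with overlapping groups, and the call was lost without myeloid replicate 3 (-0.38, adjusted p 0.06).

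Galc, which degrades galactosylceramide of myelin, had 27.5, 20.4, 20.85, 26.7 and 23.1 CPM in myeloid cells, 14.1, 11.97, 15.85, 14.65 and 23.4 in astrocytes and 23.7, 29.8, 37.9, 32.8 and 32.7 in neurons. It was lower in astrocytes than in neurons (log2 -0.97 ± 0.30), whose values did not overlap. Gla, alpha-galactosidase, had 0.771, 1.96, 2.03, 3.505 and 1.52 CPM in myeloid cells, 1.21, 11.6, 5.485, 4.34 and 5.79 in astrocytes and 3.70, 7.42, 5.25, 4.82 and 5.15 in neurons. Its mean was the lowest of the hydrolases in myeloid cells, while in astrocytes Naglu and in neurons Sgsh, Naglu and Gusb had lower means. It was lower in myeloid cells than in astrocytes (log2 -1.49 ± 0.61, adjusted p 0.0363) and in neurons (log2 -1.39 ± 0.61, adjusted p 0.0419), near the level of 3 counts, which is 0.444 to 1.49 CPM per library. The call against astrocytes was lost in 5 of 10 fits that left out 1 library (log2 -1.83 to -1.10, adjusted p 0.012 to 0.14): without myeloid replicates 1, 2, 3 or 5 or astrocyte replicate 2. The call against neurons was lost in 8 of 10 fits that left out 1 library (log2 -1.73 to -1.20, adjusted p 0.024 to 0.095): without myeloid replicates 1, 2, 3 or 5 or neuron replicates 2, 3, 4 or 5. Tpp1, a tripeptidyl peptidase, had 164.5 ± 28.75 CPM in myeloid cells, 129 ± 19.6 in astrocytes and 51.0 ± 4.05 in neurons. Its glial levels differed by 0.35 ± 0.18 (adjusted p 0.0961), and both were higher than in neurons. Ids, the iduronate sulfatase, had 62.5 ± 15.8 CPM in myeloid cells, 59.8 ± 8.92 in astrocytes and 59.3 ± 16.9 in neurons, and no comparison passed. Arsa, the sulfatase of sulfatide, had 11.5 ± 3.27 CPM in myeloid cells, 11.2 ± 2.47 in astrocytes and 6.49 ± 0.9475 in neurons, and its calls against neurons were lost with RLE factors (adjusted p 0.0971 for myeloid cells and 0.0512 for astrocytes). The myeloid call of Arsa was also lost without myeloid replicate 5 (0.62, adjusted p 0.095) or neuron replicate 3 (0.73, adjusted p 0.059), and the astrocyte call in 7 of 10 fits that left out 1 library (log2 0.65 to 0.85, adjusted p 0.035 to 0.11): without astrocyte replicates 2, 3 or 4 or neuron replicates 1, 3, 4 or 5.

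All 3 lumenal proteins fell in the order myeloid cells, astrocytes, neurons, and each of their differences passed the test. Grn, the progranulin gene, whose loss causes frontotemporal dementia or ceroid lipofuscinosis (chr11:102430507-102436809, GRCm38), had 408, 485.5, 451, 469 and 449 CPM in myeloid cells, 28.7, 34.3, 38.1, 38.9 and 36.9 in astrocytes and 29.4, 20.4, 15.75, 17.3 and 27.1 in neurons. Myeloid libraries were apart from the rest, and 1 neuron library reached into the astrocyte range. Npc2, which hands cholesterol to the transporter Npc1 (chr12:84754559-84773112, GRCm38), had 124, 154, 124, 180.3 and 152.5 CPM in myeloid cells, 29.7, 29.1, 33.8, 29.3 and 26.55 in astrocytes and 4.01, 3.04, 2.81, 5.72 and 4.88 in neurons. No pair of populations overlapped, and the astrocyte minus neuron difference was 2.85 ± 0.22 (adjusted p 1.80e-13). Psap, the precursor of the saposins that present sphingolipids to hydrolases, had 302, 393, 356, 477 and 434 CPM in myeloid cells, 183, 209.7, 187, 182 and 173 in astrocytes and 51.6, 71.2, 67.1, 78.4 and 67.8 in neurons. The populations were again separate, and per length Psap was the most abundant member in astrocytes, at 21.4 ± 1.51 RPKM.

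The membrane proteins mostly separated neurons from both glial populations. Lamp1, a main glycoprotein of the lysosomal membrane, had 141, 182.5, 193, 249 and 189 CPM in myeloid cells, 75.2, 104, 142, 125 and 139 in astrocytes and 23.7, 31.9, 32.45, 34.8 and 31.0 in neurons. Neurons lay below every glial library, and the glial groups overlapped. Lamp1 differed from neurons by 2.63 ± 0.20 in myeloid cells and 1.92 ± 0.20 in astrocytes. Lamp2, needed for autophagosome fusion, had 154 ± 29.99 CPM in myeloid cells, 139.7 ± 28.4 in astrocytes and 59.0 ± 7.79 in neurons. Npc1, the cholesterol transporter, had 114 ± 25.2 CPM in myeloid cells, 115 ± 23.6 in astrocytes and 39.9 ± 3.34 in neurons. The myeloid minus astrocyte differences of Lamp2 and Npc1 were 0.14 ± 0.20 and -0.02 ± 0.19, with adjusted p of 0.571 and 0.946, and both were lower in neurons. Lamp2 changed sign there with RLE factors (-0.0278).

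Cln3, lost in juvenile Batten disease, had 130.3, 146, 112, 89.6 and 90.1 CPM in myeloid cells, 25.5, 18.95, 22.25, 20.3 and 18.8 in astrocytes and 11.6, 12.6, 12, 11.1 and 13.15 in neurons. No populations overlapped. It differed by 2.42 ± 0.22 from astrocytes and 3.23 ± 0.22 from neurons. Scarb2, the receptor that carries glucocerebrosidase to the lysosome, had 46.9 ± 14.2 CPM in myeloid cells, 24.2 ± 6.44 in astrocytes and 10.7 ± 1.78 in neurons, and all its differences passed. Mcoln1, the calcium channel TRPML1 (chr8:3500519-3515232, GRCm38), had 120, 79.6, 105, 111 and 103 CPM in myeloid cells, 72.95, 67.6, 53.3, 54.7 and 58.2 in astrocytes and 72.6, 63.3, 49.1, 59.9 and 68.6 in neurons. It was higher in myeloid cells than in both others (log2 0.76 ± 0.20 and 0.725 ± 0.20), which differed by -0.03 ± 0.20. Tmem106b, linked to frontotemporal dementia risk (chr6:13069759-13089269, GRCm38), was the only membrane protein called lower in myeloid cells than in astrocytes. Its values were 10.3, 27.0, 21.1, 29.3 and 36.6 CPM in myeloid cells, 35.8, 58.65, 77.4, 52.6 and 69.5 in astrocytes and 19.4, 47.6, 56.45, 39.0 and 29.95 in neurons. All populations overlapped, and the difference was -1.23 ± 0.36 (adjusted p 0.00334). Against neurons it passed only with RLE factors (adjusted p 0.0317).

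Within the pump, subunits were distributed differently. Atp6v0a1, an a isoform of the V0 sector that is abundant in brain (chr11:101009422-101063719, GRCm38), had 430.2, 344, 441, 367.5 and 354 CPM in myeloid cells, 156, 122, 118, 150.1 and 121 in astrocytes and 559, 455, 341.5, 396 and 464 in neurons. Astrocytes lay below every other library, and myeloid cells and neurons overlapped. The astrocyte minus neuron difference was -1.73 ± 0.17. Atp6v0a1 was called lower in myeloid cells than in neurons with RLE factors (log2 -0.42, adjusted p 0.0264) but not with TMM (-0.195 ± 0.17, adjusted p 0.309). Per length it was the most abundant member in neurons, at 28.5 ± 4.82 RPKM. Atp6v1h, a regulatory V1 subunit, had 10.8, 19.1, 15.35, 14.5 and 22.6 CPM in myeloid cells, 9.245, 19.15, 20.1, 14.05 and 10.4 in astrocytes and 35.9, 29.35, 34.7, 38.4 and 36.05 in neurons. Neurons lay above all glial libraries (log2 -1.08 ± 0.30 for myeloid cells and -1.26 ± 0.30 for astrocytes). Atp6v1a, the catalytic V1 subunit, had 34.4 ± 10.3 CPM in myeloid cells, 35.5 ± 3.55 in astrocytes and 53.1 ± 3.97 in neurons, and Atp6v1b2, the B subunit of V1, 44.9 ± 16.5 CPM in myeloid cells, 23.8 ± 5.92 in astrocytes and 46.3 ± 9.255 in neurons. Atp6v1a was higher in neurons than in both glial types, and Atp6v1b2 was lower in astrocytes than in both others.

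Atp6ap1, an accessory protein of V0, had 121, 134, 105, 131 and 179.7 CPM in myeloid cells, 86.6, 66.8, 68.0, 63.5 and 82.55 in astrocytes and 47.0, 73.1, 85.15, 78.6 and 64.0 in neurons. Myeloid cells lay above the rest (log2 0.87 ± 0.19 and 0.95 ± 0.19), and astrocytes and neurons overlapped. Atp6ap2, the other accessory protein, had 13.1, 16.8, 38.2, 21.0 and 22.4 CPM in myeloid cells, 23.7, 14.2, 39.0, 13.2 and 35.0 in astrocytes and 12.3, 15.97, 22.9, 24.4 and 16.8 in neurons. All groups overlapped and no comparison passed. Atp6v0d1, the widely expressed d subunit, had 46.5, 27.85, 34.7, 45.1 and 28.7 CPM in myeloid cells, 17.3, 16.8, 17.4, 14.65 and 17.6 in astrocytes and 19.7, 28.9, 26.1, 21.4 and 19.4 in neurons. Astrocytes were lowest, and the call of myeloid cells over neurons (log2 0.66 ± 0.21) was lost with RLE factors (adjusted p 0.0777). Over the 7 pump genes tested, 4 were higher and 0 lower in myeloid cells than in astrocytes, 2 higher and 2 lower than in neurons (1 and 3 with RLE factors), and 0 higher and 4 lower in astrocytes than in neurons (0 and 5 with RLE factors). With TMM, 26.8% and 30.7%, 34.1% and 33.7%, and 26.9% and 24.8% of all genes were called. Atp6v0d2, the d isoform known from osteoclasts and macrophages, was near the limit of detection and was not tested. It had 1 count over the 5 non-Tg and 12 over the 5 PS2APP myeloid libraries, 8 of the latter in replicate 3, 2 and 9 in astrocytes, where the 9 came from 1 library, and 1 and 1 in neurons.

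Tfeb (chr17:47737037-47792416, GRCm38) had 58.3, 46.1, 30.7, 31.2 and 43.7 CPM in myeloid cells, 20.3, 19.95, 16.8, 14.05 and 14 in astrocytes and 1.23, 1.35, 1.69, 0.602 and 1.63 in neurons. The 3 populations did not overlap, and neuron values lay near the level of 3 counts. The difference from neurons was 4.99 ± 0.37 in myeloid cells and 3.69 ± 0.36 in astrocytes, and 1.30 ± 0.30 between the glial types.

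**Figure D3:**
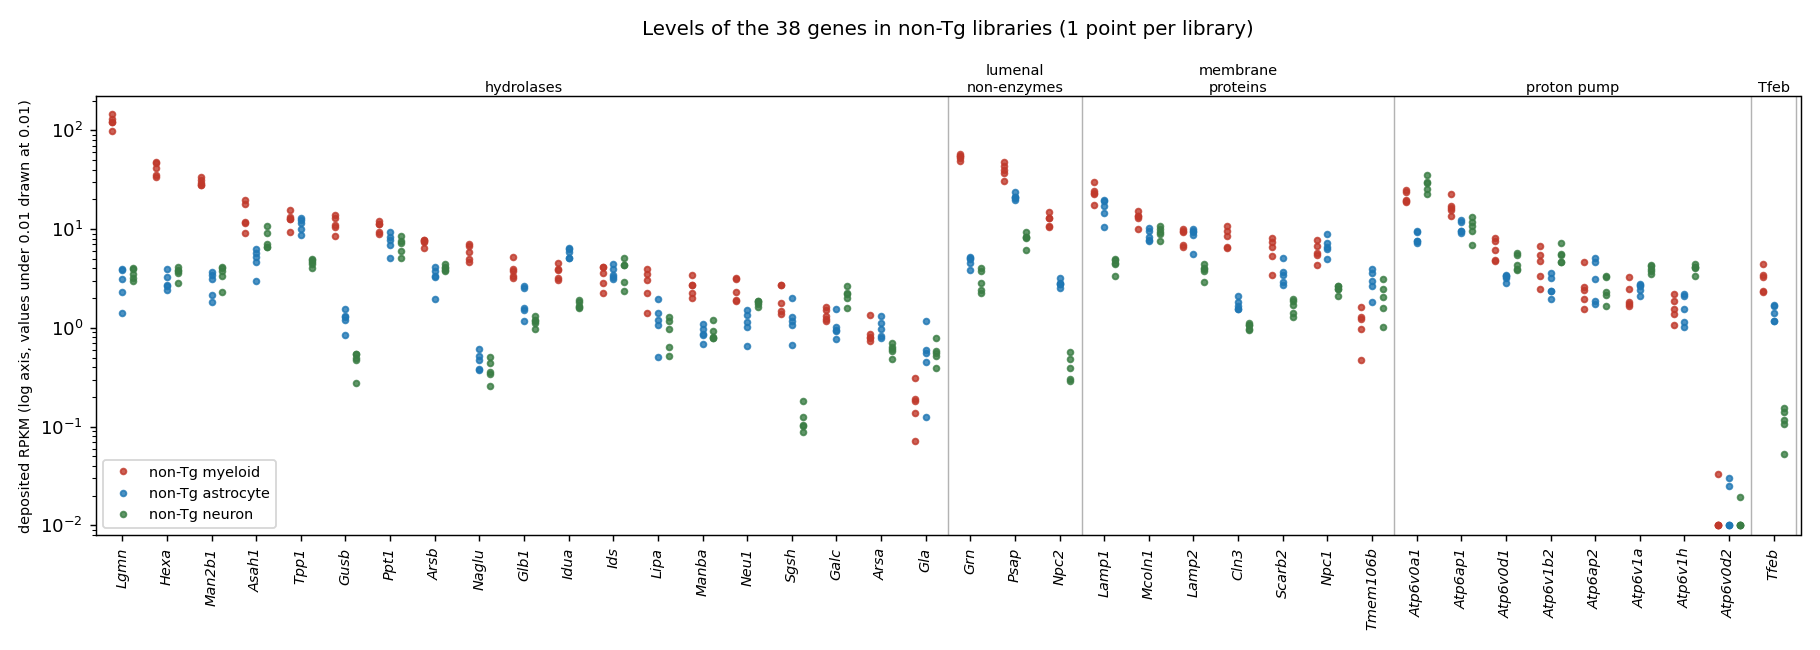
Deposited RPKM (log y axis) of the 38 genes (x axis, by role) in the 15 non-Tg libraries. Lgmn is the highest member in myeloid cells, Psap in astrocytes and Atp6v0a1 in neurons, with means of 123.5, 21.4 and 28.5 RPKM.

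Low levels outside myeloid cells can be set beside the trace of microglial markers there. The 10 markers summed to 0.479% and 0.533% of their myeloid level in astrocytes and neurons, and the highest single marker to 1.77% and 1.52%. Lgmn stood at 2.10% and 2.44%, Npc2 at 20.2% and 2.79%, Grn at 7.82% and 4.86%, Hexa at 6.5% and 7.53% and Tfeb at 40.5% and 3.09%. Each of these members exceeded every marker, Lgmn by the least. The labels do not say whether reads were counted by strand, so overlapping genes may share reads with some members. Apobr, which covers 13.2% of the exon bases of Cln3 on the opposite strand, had 85.8, 2.26 and 0.660 CPM in myeloid cells, astrocytes and neurons. Card14, over 21.9% of those of Sgsh, had 6.08, 2.94 and 0.333 CPM in myeloid cells, astrocytes and neurons. C230037L18Rik, over 19.8% of those of Arsa, had 0.55, 4.74 and 4.14 CPM in the same order. Rgs20, over 5.84% of those of Atp6v1h, had 6.55, 271 and 18.4 CPM. Gm26527 covers 48.2% of those of Arsb. Glb1, Galc, Idua, Ppt1, Lamp1 and Npc1 share 8.48% or less with any other gene. Their part in the members' levels was not tested.

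The promoters were read for the letters to which Tfeb and its relatives bind. RefSeq windows (GRCm38.p6, 250 bases before to 50 after a start site) were matched for 33 of the 38 genes. CACGTG, a palindrome and so the same on both strands, was in 11 members, or 33.3%, and in 8.09% of all 27025 genes. TCACGTGA, which contains it, was in 5 (Atp6v0d1, Atp6v1a, Cln3, Gla and Mcoln1), or 15.15%, against 1.125%. The full palindrome of the CLEAR element, which extends TCACGTGA by 1 letter on each side, was in 1 (Cln3), against 0.37% of all genes. At least 2 matches of CACGTG stood in 4 members and 0.681% of all genes, and Lamp1, with 4, was 1 of 6 genes with that many. A match describes letters and not binding.

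Stretches of 90 bases before the start site are shown for members of different order, 5′ to 3′ on the gene's strand, with CACGTG in capitals. Lgmn, Naglu, Lamp1, Mcoln1 and Cln3 had their highest mean in myeloid cells, as did Sgsh, while Atp6v1a was highest in neurons and Gla lowest in myeloid cells.
Gla, chrX:134601163-134601252, strand -: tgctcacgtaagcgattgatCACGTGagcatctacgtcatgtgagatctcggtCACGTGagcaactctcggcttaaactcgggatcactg
Lgmn, chr12:102439093-102439182, strand -: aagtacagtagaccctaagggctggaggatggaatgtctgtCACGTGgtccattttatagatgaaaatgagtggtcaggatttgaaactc
Naglu, chr11:101070001-101070090, strand +: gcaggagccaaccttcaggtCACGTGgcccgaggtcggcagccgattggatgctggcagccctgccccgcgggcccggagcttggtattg
Sgsh, chr11:119355511-119355600, strand -: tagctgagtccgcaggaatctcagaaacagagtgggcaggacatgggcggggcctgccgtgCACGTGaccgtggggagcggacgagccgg
Lamp1, chr8:13159071-13159160, strand +: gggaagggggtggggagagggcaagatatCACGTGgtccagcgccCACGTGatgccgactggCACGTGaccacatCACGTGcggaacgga
Mcoln1, chr8:3500428-3500517, strand +: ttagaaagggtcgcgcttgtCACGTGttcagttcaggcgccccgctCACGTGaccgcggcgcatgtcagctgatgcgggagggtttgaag
Cln3, chr7:126583316-126583405, strand -: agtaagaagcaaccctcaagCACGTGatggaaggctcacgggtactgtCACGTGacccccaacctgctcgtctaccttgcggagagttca
Atp6v1a, chr16:44139321-44139410, strand -: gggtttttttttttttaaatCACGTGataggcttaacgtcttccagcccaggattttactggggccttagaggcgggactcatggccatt
Counted from the start site, the matches of Lamp1 begin at -61, -45, -28 and -15, those of Mcoln1 at -71 and -45, and those of Cln3 at -149 and -121. RefSeq gives a pair of start sites each for Cln3 and Lgmn, and the matches and the stretches shown belong to the downstream one, with none in the window of the other. Naglu has its match at -73, Lgmn at -49, Sgsh at -29 and Atp6v1a at -131, and Gla has matches at -227 and -194. The longer TCACGTGA stood in genes of both orders: of the 5 members with it, 3 were higher and 2 (Gla and Atp6v1a) lower in myeloid cells than in neurons, and of the 28 without it, 23 were higher and 0 lower. Of all genes, 34.1% were called higher and 33.7% lower there. The call of Gla was lost in most fits that left out 1 library.

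Between genotypes the first comparison was in myeloid cells, where Gla and Atp6v0d2 were too low to test. There 1 of the 36 members tested was lower in PS2APP and 0 were higher, and 12 had an unadjusted p under 0.05, as did 19.3% of all genes. Over all 12274 genes tested 3.36% were called, 1.86% higher and 1.5% lower. The member was Atp6ap1 (chrX:74297097-74304721, GRCm38), with 116, 123, 101.4, 122 and 171 CPM in non-Tg and 74.8, 87.2, 88.2, 63.0 and 89.2 in PS2APP myeloid libraries, scaled here and below within the population. Each PS2APP library lay below each non-Tg library. The log2 difference was -0.65 ± 0.18 (edgeR adjusted p 0.0429). The call held in 2 of 10 fits that left out 1 library, those without non-Tg replicate 1 or 3, with values from -0.72 to -0.52 and adjusted p from 0.036 to 0.15, and was lost without PS2APP replicate 4, the library that stood apart (-0.58 ± 0.18, adjusted p 0.105). With the mitochondrial share as a covariate the value was -0.605 with adjusted p 0.39, and 0.212% of all genes were called.

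No other pump gene passed in myeloid cells. Atp6v1a had 25.9, 24.1, 48.2, 27.3 and 37.6 CPM in non-Tg and 59.0, 74.0, 46.8, 49.65 and 57.0 in PS2APP libraries (log2 0.82 ± 0.235, adjusted p 0.0561). Only non-Tg replicate 3 reached the PS2APP range. Atp6v0d1 had 44.6, 25.6, 33.4, 42.1 and 27.3 CPM in non-Tg and 46.3, 52.3, 30.8, 55.4 and 52.5 in PS2APP libraries, with overlap (log2 0.45 ± 0.24, adjusted p 0.302). The other 4, Atp6v1b2, Atp6v0a1, Atp6v1h and Atp6ap2, had values of 0.54, 0.17, -0.27 and -0.40.

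No membrane protein passed in myeloid cells, and their median was -0.37. Mcoln1 had 115, 73.25, 101.4, 104 and 97.7 CPM in non-Tg and 147.7, 112.5, 179, 216 and 119 in PS2APP libraries (log2 0.65 ± 0.19, adjusted p 0.0561), and 1 PS2APP library fell within the non-Tg range. The highest was replicate 4, which stood apart, and without it the value was 0.51 ± 0.18, adjusted p 0.149. Tmem106b had 9.86, 24.8, 20.3, 27.3 and 34.7 CPM in non-Tg and 13.9, 19.55, 12.9, 4.46 and 5.62 in PS2APP libraries, with overlap and the widest difference of any member (-1.05 ± 0.40, adjusted p 0.153). Without replicate 4, the lowest, it was -0.86 ± 0.39, adjusted p 0.267. Lamp1 had 135, 168, 186, 232.5 and 179 CPM in non-Tg and 164, 168, 141, 111 and 196 in PS2APP libraries and Lamp2 114, 115, 161, 173 and 164 CPM in non-Tg and 118, 86.7, 135, 100.6 and 102 in PS2APP. Both overlapped, with differences of -0.205 ± 0.175 and -0.42 ± 0.18 and adjusted p of 0.552 and 0.188.

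No hydrolase passed either. Sgsh had 20.7, 39.1, 25.9, 21.9 and 40.7 CPM in non-Tg and 14.3, 18.5, 16.35, 14.6 and 15.0 in PS2APP libraries, without overlap (log2 -0.91 ± 0.29, adjusted p 0.0831). Lgmn had 671, 806, 883, 844 and 1013 CPM in non-Tg and 488, 805, 618, 475.5 and 626 in PS2APP libraries (log2 -0.485 ± 0.16, adjusted p 0.0916). Only PS2APP replicate 2 lay within the non-Tg range, and without replicate 4, the lowest, the difference was -0.41 ± 0.16, adjusted p 0.202. Ppt1 had 81.8 to 107 CPM in non-Tg and 56.7 to 79.8 in PS2APP libraries (adjusted p 0.168). In all, groups did not overlap for 1 member higher (Grn) and 3 lower (Sgsh, Ppt1 and Atp6ap1), against 2.09% and 2.71% of all genes. DESeq2 called 4 members, Atp6ap1 and Sgsh lower and Atp6v1a and Mcoln1 higher.

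Among the lumenal proteins, Grn had 391.7, 447, 434, 438 and 426 CPM in non-Tg and 602.5, 460.2, 483.5, 463 and 702 in PS2APP myeloid libraries. These did not overlap, and the difference of 0.34 ± 0.15 did not pass (adjusted p 0.2). Npc2 had 119, 141, 119, 168 and 145 CPM in non-Tg and 210.2, 171, 133, 118 and 154 in PS2APP libraries and Psap 290.1, 361, 343, 445.5 and 412 CPM in non-Tg and 312, 293, 288, 299 and 346 in PS2APP, both with overlap (log2 0.185 ± 0.17 and -0.27 ± 0.15, adjusted p 0.596 and 0.318). Tfeb had 56.0, 42.4, 29.5, 29.2 and 41.5 CPM in non-Tg and 67.9, 44.9, 28.5, 28.0 and 57.7 in PS2APP libraries, also with overlap (log2 0.20 ± 0.27, adjusted p 0.727). The median over the 36 members was -0.04, beside -0.00213 over all genes. The 38 genes took 0.427% ± 0.0616 of counts in PS2APP myeloid libraries, against 0.526% ± 0.0569 in non-Tg. These shares carry no TMM factors, and the mitochondrial share of the same counts was 13.5% in PS2APP against 8.75% in non-Tg. Microglial markers summed to 6001 to 8526 CPM in PS2APP and 8302 to 9747 in non-Tg libraries, and neuronal markers to 583 to 756 and 344 to 585. The 8 oligodendrocyte markers summed to 1175 to 1797 CPM in PS2APP and 717 to 1103 in non-Tg libraries, without overlap. Of the 6 tested singly, 3 were above 0 and 2 were called higher in PS2APP. With the summed astrocyte and neuronal markers of each library as a covariate, 3 members were called, Atp6ap1 (log2 -0.705, adjusted p 0.013), Lgmn (-0.56, adjusted p 0.015) and Mcoln1 (0.69, adjusted p 0.021), where 6.53% of all genes were called. The part of the microglial and oligodendrocyte markers was not tested.

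**Figure D4:**
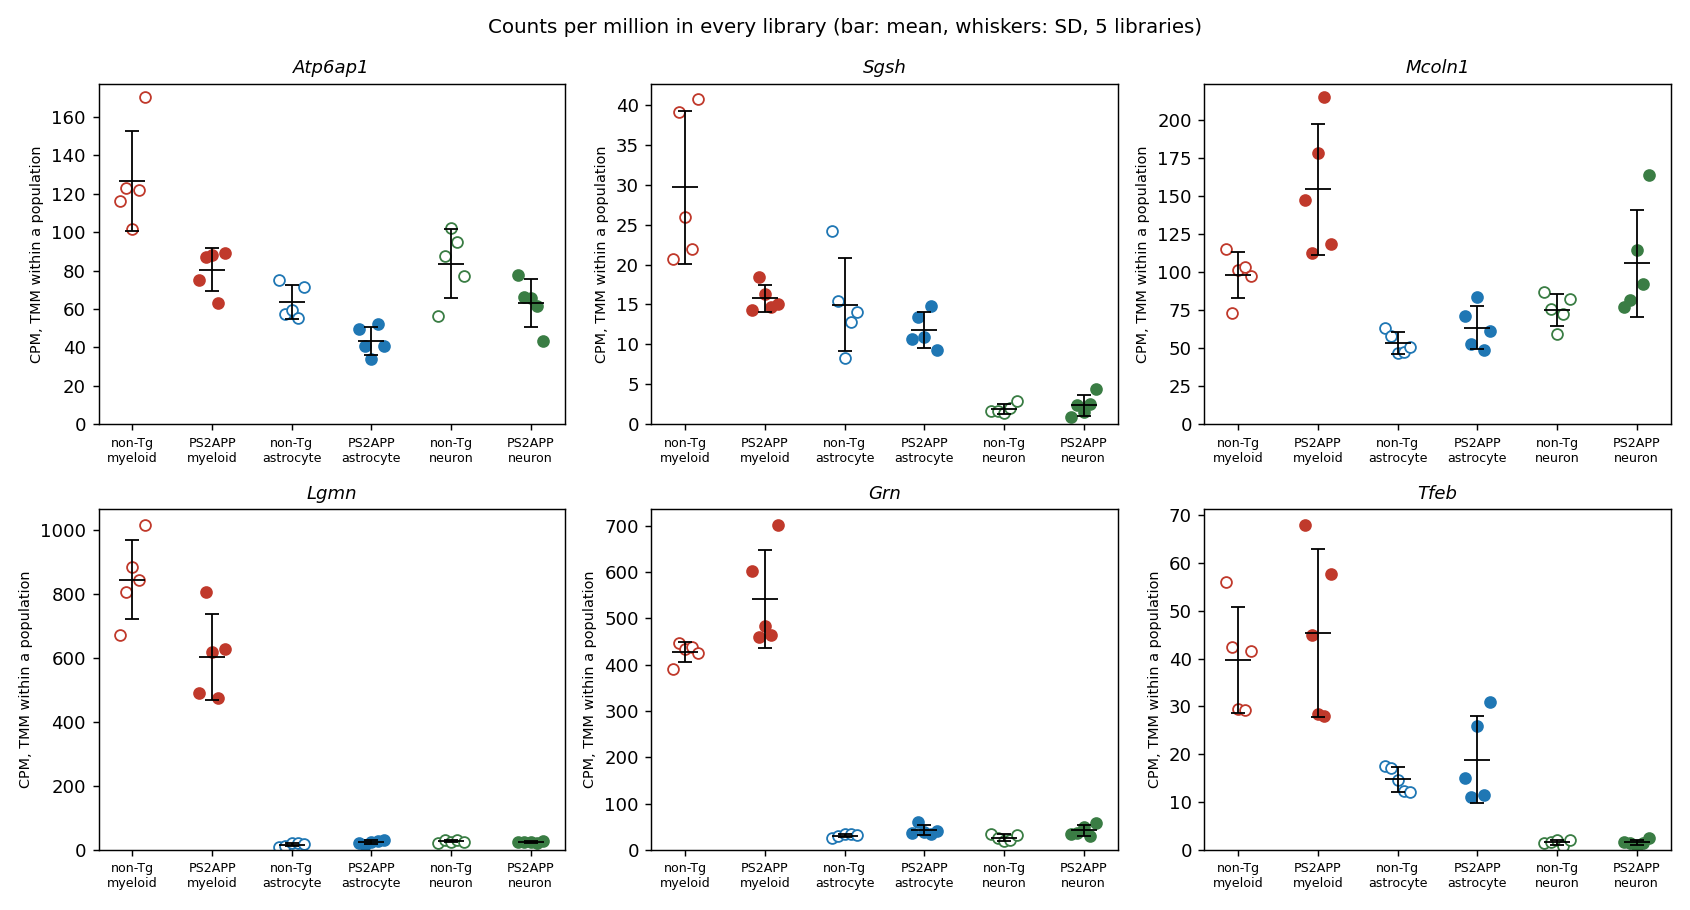
CPM (y axis, TMM within a population) of selected members in each library of the 6 groups (x axis), with means and SD over 5 libraries. Atp6ap1 in myeloid cells lies at 63.0 to 89.2 CPM in PS2APP against 101.4 to 171 in non-Tg libraries.

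In astrocytes none of the 37 members tested passed with edgeR (0) or DESeq2 (0), and 5 had an unadjusted p under 0.05, as did 17.2% of all genes. Of all 14043 genes 0.185% were called. Atp6ap1 had 74.9, 57.6, 59.6, 55.2 and 71.7 CPM in non-Tg and 49.4, 40.8, 34.03, 52.1 and 40.65 in PS2APP libraries (log2 -0.55 ± 0.19, adjusted p 0.17), and without replicate 3, the lowest, the difference was -0.47 ± 0.185, adjusted p 0.296. It was the 1 member whose groups did not overlap, against 2.99% of all genes. Cln3 had 22.1, 16.3, 19.5, 17.7 and 16.3 CPM in non-Tg and 19.1, 46.1, 29.2, 24.5 and 21.0 in PS2APP libraries (log2 0.60 ± 0.26, adjusted p 0.252), and Tmem106b 30.9, 50.6, 67.8, 45.7 and 60.3 CPM in non-Tg and 50.4, 27.1, 29.2, 36.4 and 36.5 in PS2APP (log2 -0.505 ± 0.24, adjusted p 0.283). Both overlapped. Atp6ap2 differed by -0.83 ± 0.35 (adjusted p 0.234). With the mitochondrial share as a covariate Cln3, Tmem106b and Atp6ap2 changed sign.

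Grn had 24.85, 29.6, 33.4, 33.8 and 32.1 CPM in non-Tg and 37.2, 60.5, 38.9, 33.2 and 40.65 in PS2APP astrocyte libraries (log2 0.45 ± 0.21, adjusted p 0.286), where only PS2APP replicate 4 lay in the non-Tg range. Lgmn had 7.82, 12.9, 22.2, 21.6 and 17.2 CPM in non-Tg and 22.5, 14.04, 25.2, 26.4 and 30.7 in PS2APP libraries (log2 0.55 ± 0.30, adjusted p 0.361), and Man2b1 49.5, 46.4, 30.2, 42.7 and 24.7 CPM in non-Tg and 65.7, 53.2, 51.0, 44.6 and 45.8 in PS2APP (log2 0.42 ± 0.22, adjusted p 0.333). Both overlapped. Idua, the hydrolase of smallest p, had 68.1, 84.95, 69.7, 82.8 and 77.7 CPM in non-Tg and 61.65, 57.85, 44.05, 75.5 and 60.3 in PS2APP libraries, with overlap (log2 -0.355 ± 0.18, adjusted p 0.321). Its lowest library was PS2APP replicate 3, which stood apart, and without it the value was -0.26 ± 0.17, adjusted p 0.534. Lamp1, Lamp2, Npc2, Psap, Atp6v0d1 and Tfeb had values of -0.17, -0.16, 0.08, 0.08, -0.04 and 0.35 and overlapping groups. Tfeb libraries held 17.55, 17.2, 14.7, 12.2 and 12.15 CPM in non-Tg and 15.0, 11.03, 25.8, 11.4 and 31.0 in PS2APP mice. Oligodendrocyte markers summed to 787 to 1224 CPM in non-Tg and 1003 to 2134 in PS2APP astrocytes, with overlap, and their part was not tested. Microglial markers summed to 32.4 to 53.5 CPM in non-Tg and 56.8 to 129.9 in PS2APP astrocytes, and neuronal markers to 833 to 1206 and 1329 to 2659, neither with overlap. With the summed microglial and neuronal markers as a covariate 0 members and 0.0356% of all genes were called, and Atp6ap1 stood at -0.35, adjusted p 0.8. Because those sums do not overlap between genotypes, this fit cannot tell markers from genotype. The members' median was 0.045, beside 0.01 for all genes.

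In neurons none of the 37 members passed with edgeR (0) or DESeq2 (0), and 11 had an unadjusted p under 0.05, as did 22.9% of all genes. Of all 16064 genes 0.00623% were called. Grn had 35.2, 24.4, 18.9, 20.9 and 32.6 CPM in non-Tg and 34.95, 37.0, 49.6, 29.3 and 58.6 in PS2APP libraries (log2 0.66 ± 0.22, adjusted p 0.186), with overlap. Without replicate 5, the highest, it was 0.51 ± 0.20, adjusted p 0.343. Gusb, at 2.76 to 5.40 CPM in non-Tg and 5.65 to 7.98 in PS2APP libraries, was the 1 member whose groups did not overlap, against 3.13% of all genes (log2 0.555 ± 0.22, adjusted p 0.19). Galc, the hydrolase of smallest p, had 28.4, 35.8, 45.5, 39.6 and 39.3 CPM in non-Tg and 33.5, 25.0, 25.8, 32.1 and 20.9 in PS2APP libraries (log2 -0.455 ± 0.165, adjusted p 0.186). Its groups overlapped, and without replicate 5, the lowest, the difference was -0.37 ± 0.16, adjusted p 0.353.

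Lamp2 had 74.2, 71.3, 79.1, 74.8 and 54.95 CPM in non-Tg and 59.1, 65.2, 41.8, 51.9 and 40.9 in PS2APP neuron libraries (log2 -0.45 ± 0.16, adjusted p 0.186). Tmem106b had 23.2, 57.1, 67.9, 47.0 and 36.0 CPM in non-Tg and 39.2, 29.2, 11.8, 28.8 and 8.78 in PS2APP libraries (log2 -0.98 ± 0.37, adjusted p 0.189). The lowest PS2APP library of both was replicate 5, which stood apart, and without it Lamp2 was at -0.38 ± 0.15, adjusted p 0.343, and Tmem106b at -0.77 ± 0.31, adjusted p 0.346. Atp6ap1 had 56.2, 87.75, 102, 94.7 and 76.96 CPM in non-Tg and 77.9, 66.2, 65.9, 61.5 and 43.3 in PS2APP libraries (log2 -0.41 ± 0.18, adjusted p 0.208), with overlap, and -0.30 ± 0.16, adjusted p 0.406 without replicate 5, the lowest. Scarb2 (-0.58), Ids (-0.61), Mcoln1 (0.49), Man2b1 (0.38) and Atp6v0a1 (0.355) were the others with an unadjusted p under 0.05. Lamp1, Npc2, Psap, Atp6v0d1 and Tfeb had values of -0.11, 0.33, 0.10, -0.17 and -0.02. The members' median was 0.000356, beside -0.02 for all genes.

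**Figure D5:**
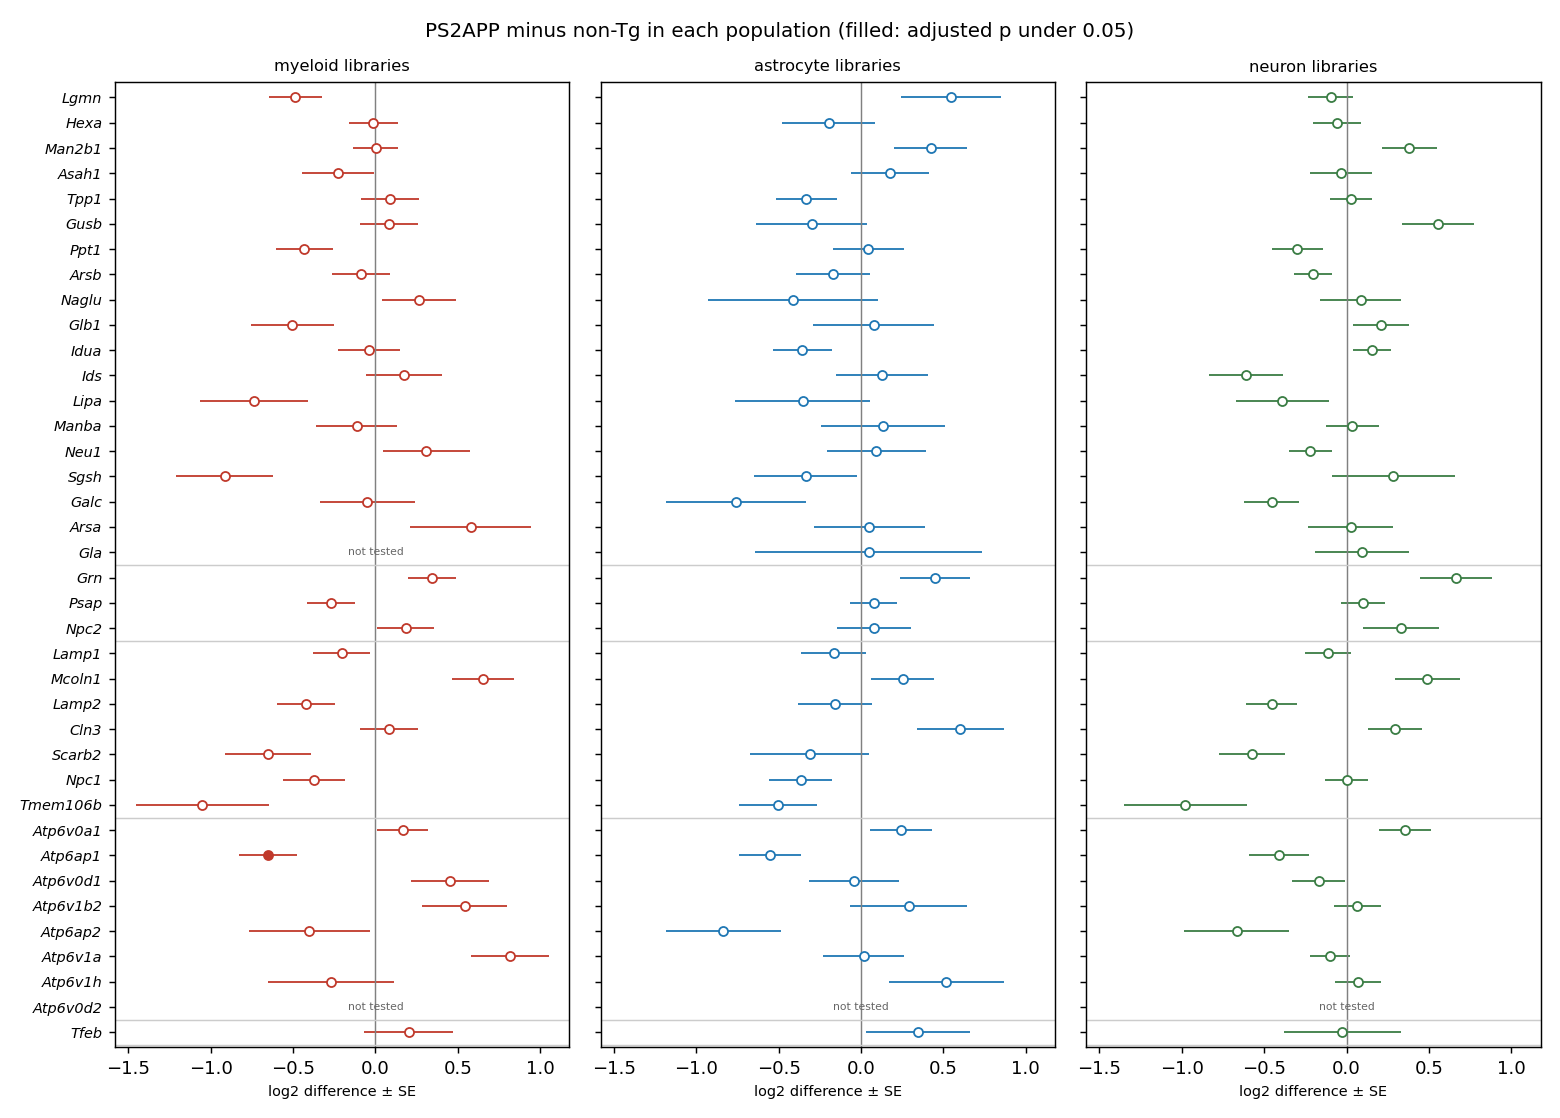
PS2APP minus non-Tg differences (log2 ± SE, x axis) of the 38 genes (y axis, by role) in the 3 populations. Atp6ap1 in myeloid cells, at -0.65, is the only member with an adjusted p under 0.05.

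Without the libraries that stood apart, 0 members were called in any population, and 1.45%, 0.197% and 0.0671% of all genes were. A miss of the threshold leaves room for moderate differences. The interval of 2 SE lay within -1 to 1 on the log2 scale for 24 of 36 members in myeloid cells, 28 of 37 in astrocytes and 32 of 37 in neurons.

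The 3 genotype comparisons use separate libraries, but these may come from the same mice, so the comparisons may not be independent. Over all genes tested in each, their log2 differences correlated between populations. The correlation was 0.42 for myeloid cells and astrocytes, 0.45 for myeloid cells and neurons and 0.54 for astrocytes and neurons. Atp6ap1 was below 0 in each, at -0.65, -0.55 and -0.41, as was Tmem106b at -1.05, -0.505 and -0.98. Grn was above 0 at 0.34, 0.45 and 0.66, and Mcoln1 at 0.65, 0.25 and 0.49. Of the 36 members tested in all 3, 8 (22.2%) were above 0 and 10 (27.8%) below 0 throughout, against 29.7% and 23.95% of all 10583 genes so tested.

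Whether the PS2APP effect differed between populations was tested as an interaction in 1 fit of all 30 libraries. None (0) of 37 members passed with edgeR in any pair, where 0.757%, 0.105% and 0.0331% of all genes did (myeloid against astrocyte, myeloid against neuron, astrocyte against neuron). At an unadjusted p under 0.05 there were 4, 3 and 3, beside 13%, 9.65% and 4.97% of all genes. Lgmn came closest, with a myeloid minus astrocyte effect of -1.10 ± 0.29 (adjusted p 0.0594). DESeq2 called it (-0.97, adjusted p 0.048) and no other member in any pair, and edgeR called it in 5 of 20 fits that left out 1 library. Without the 3 libraries that stood apart it was -0.95 with adjusted p 0.13. The median interaction of all genes was -0.11, -0.15 and -0.05 with TMM and 0.02, -0.01 and -0.04 with RLE factors, with which Lgmn stood at -0.97 (adjusted p 0.11).

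A further 90 lysosomal genes, in lists of other hydrolases, cathepsins, membrane proteins, pump subunits, sorting factors and the MiT/TFE and mTORC1 group, gave the surroundings of the set. Of 82 tested, 42 were higher and 9 lower in myeloid cells than in astrocytes, 53 and 11 against neurons, and 32 and 10 in astrocytes against neurons. Of all genes, 26.8% and 30.7%, 34.1% and 33.7%, and 26.9% and 24.8% were called in these 3 comparisons. Of 10 cathepsins, the proteases of the lysosome, 8 were higher and 0 lower in myeloid cells than in astrocytes and 9 and 0 against neurons. Other pump subunits were mixed, with 6 of 13 higher and 4 lower in myeloid cells than in neurons, beside 34.1% and 33.7% of all genes. Among relatives of Tfeb, Tfe3 had 112.5 ± 9.40 CPM in myeloid cells, 19.2 ± 6.22 in astrocytes and 18.8 ± 1.885 in neurons and Mitf 39.6 ± 6.33 CPM in myeloid cells, 14.9 ± 1.90 in astrocytes and 8.08 ± 1.11 in neurons. Tcirg1, another a isoform of V0, had 656 ± 198 CPM in myeloid cells, 48.7 ± 7.61 in astrocytes and 8.59 ± 0.887 in neurons, an order unlike that of Atp6v0a1.

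Between genotypes 1 of the 75 tested in myeloid cells passed, and 0 of 70 in astrocytes and 0 of 76 in neurons with edgeR, while 20, 14 and 27 had an unadjusted p under 0.05, beside 19.3%, 17.2% and 22.9% of all genes. It was Slc38a9, the lysosomal arginine sensor upstream of mTORC1, with 49.55, 122.5, 74.1, 94.8 and 80.35 CPM in non-Tg and 52.85, 44.9, 35.35, 24.2 and 58.85 in PS2APP myeloid libraries. The groups overlapped, and the difference was -0.955 ± 0.25 (adjusted p 0.0355). The call held in 3 of 10 fits that left out 1 library, those without non-Tg replicate 1 or PS2APP replicates 1 or 5. It was lost without PS2APP replicate 4, the lowest library and the one that stood apart (-0.81, adjusted p 0.084), and also in the fit with a mitochondrial covariate (-0.47, adjusted p 0.62).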

How the data were processed

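RNA-seq libraries of 3 sorted populations from 2 genotypes, 5 for each of 6 groups, were analysed from deposited tables. Per the file headers these hold read counts and size-factor adjusted RPKM for each gene identifier, as made by the authors. GSNAP and GRCm38 are named in the submitters' processing notes. For the counter, its annotation and its use of strand the labels and headers give nothing. Symbols were matched for 31049 of 36528 identifiers, which held 96.7% of counts.

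Counts were filtered (filterByExpr), scaled by TMM and tested with edgeR 4.0.16 in R 4.3.3 (quasi-likelihood test, Benjamini-Hochberg adjustment over all genes, threshold 0.05). Genotypes were compared within each population and populations and interactions in 1 fit of 30 libraries. The SE is the log2 difference divided by the root of F. RPKM served to compare levels between genes. The scripts were tested on simulated data. Libraries of a group differed by more than sampling noise (chi-square per degree of freedom at least 4.06), so none were merged.

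Alternatives were RLE size factors, no filter, DESeq2 1.42.0, covariates for other-cell markers and for the mitochondrial share, leaving mitochondrial and ribosomal RNA genes out, another choice of libraries in the fit, leaving out each library, and, chosen after seeing the data, leaving out the 3 libraries that stood apart. The members and lists were chosen with earlier results of these data known. By rule, all 38 members are named with levels. The rule gives library values for members called between genotypes and for Tfeb, Grn, Psap, Tmem106b, Lamp1, Lamp2, Npc2, Atp6v0d1 and Atp6v0d2. It also gives them for the smallest p or widest differences in each role. Many members called only between populations have means and SD alone. Other members with library values, and other listed genes with levels (Tfe3, Mitf, Tcirg1), were chosen after their values were seen. The levels of 1 further listed gene are not reported here.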

Additional observations from a re-analysis of the deposited data

Results flagged for a closer look

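Of 258 sets of 5 libraries checked for a single distant value (38 genes and 5 sums in 6 groups), 11 held one, and chance gives about 1 in 20, or 12.9. Grn in PS2APP astrocyte replicate 2 stood at 60.52 CPM, with the next library at 40.65. Scarb2 in PS2APP astrocyte replicate 3, the library that stood apart, stood at 3.342 CPM, with the next at 17.68. Arsa in non-Tg myeloid replicate 5 was the highest of its group at 16.32 CPM. Gusb was lowest in non-Tg neuron replicate 1 at 2.763 CPM, and Npc1 in non-Tg neuron replicate 1 at 40.89 CPM and in PS2APP neuron replicate 5 at 36.7 CPM. The rest were single libraries with reads of the barely detected Atp6v0d2: 0.2786 CPM in non-Tg and 3.041 in PS2APP myeloid replicate 3, 1.607 in PS2APP astrocyte replicate 4, 0.1815 in non-Tg neuron replicate 4 and 0.2355 in PS2APP neuron replicate 2.

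The PS2APP effect on Laptm5, a lysosomal membrane protein of haematopoietic cells outside the 38 genes, differed between myeloid cells and astrocytes by -2.44 ± 0.42 on the log2 scale (edgeR interaction, adjusted p 0.0019). Astrocyte libraries had 2.955, 0.860, 4.81, 2.21 and 2.305 CPM in non-Tg and 7.51, 19.4, 13.1, 10.2 and 3.79 in PS2APP mice, and myeloid libraries had 1402 ± 83.8 and 1149 ± 175 (SD, n = 5). The non-Tg astrocyte values were low, near the level of 3 counts, which is 0.444 to 1.49 CPM per library. Scaled over all libraries, non-Tg Laptm5 had 3.02 ± 1.635 CPM in astrocytes against 1485 ± 107 in myeloid cells. The 10 microglial markers summed to 42.8 ± 9.52 against 8924 ± 682 there. Microglial markers summed to 32.4 to 53.5 CPM in non-Tg and 56.8 to 129.9 in PS2APP astrocyte libraries, and their part was not tested.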

How the results depend on the processing

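The count of members called in PS2APP myeloid cells (1) was 3 without a filter, 4 with DESeq2, 3 with a covariate for other-cell markers, 0 with the mitochondrial share as a covariate, 2 in 1 fit of 30 libraries, and 0 to 4 when 1 library was left out. Beside these, 3.39%, 3.29%, 6.53%, 0.212% and 4.41% of all genes were called, and 0.859% to 5.27% when 1 library was left out. The 4 came without non-Tg replicate 1, a count of 2 without non-Tg replicate 3 or PS2APP replicate 2, and 0 without each of the other 7. The members whose effect differed between myeloid cells and astrocytes (0) were 1 with DESeq2 (1.16% of all genes) and 0 to 1 when 1 library was left out. With the mitochondrial covariate the sign in astrocytes changed for Atp6ap2 (0.0802), Atp6v0d1 (0.204), Cln3 (-0.0725), Idua (0.243), Lamp1 (0.192), Lamp2 (0.659), Npc2 (-0.211), Tfeb (-0.186) and Tmem106b (0.225), and in neurons for Tfeb (0.116). Lamp2 between myeloid cells and astrocytes was -0.0278 with RLE factors and -0.028 with DESeq2. Leaving out 1 library gave both signs for Atp6v0d1 (-0.218 to 0.0366) and Npc2 (-0.0105 to 0.199) in astrocytes, Tfeb in neurons (-0.243 to 0.154), Lamp2 between myeloid cells and astrocytes (-0.0243 to 0.22) and Mcoln1 between astrocytes and neurons (-0.135 to 0.0236). None of these changed signs passed the threshold, and the cause was not tested. Between populations, 1258 of 1320 values under other settings kept their direction and side of the threshold. Mean mitochondrial share and depth were unequal between genotypes in the myeloid and astrocyte libraries (not tested), which limits those genotype comparisons. In astrocytes the mitochondrial shares of the genotypes did not overlap. The sign changes with that covariate there cannot tell share from genotype. No paired analysis was possible because the labels carry no replicate numbers.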
